A study of Mus musculus with 16 samples.

Results

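Heat shock and endoplasmic reticulum (ER) chaperone genes were followed in the liver and kidney of aged mice after long-term circadian misalignment. The 46 genes were taken by symbol from the 32989 gene models of the deposited expression tables. The rule that picked them used names and no measured value, but the list was chosen with earlier results of these data known. They comprised 17 genes of the cytosolic heat shock response, called HSF1-type here, and 29 genes of the ER chaperone and ER stress response. All 46 were found once in each table, and all 46 passed the filter on low values in both organs. The mice were male wild-type C57BL/6J animals aged 97 weeks. For 85 weeks, 4 of them had lived under a regular light-dark cycle (LD) and 4 under a schedule in which the lights were shifted forward by 8 hours every 4 days (ADV). Liver and kidney came from the same 8 mice, named L63, L65, L86 and L104 in the LD group and A75, A91, A94 and A115 in the ADV group, and each organ of each mouse gave 1 poly(A) RNA-seq library. Tissue was taken in the early dark phase of the light schedule on a single occasion per mouse, so that a level at other times of day was not measured. The paper reports that the activity of ADV mice did not resynchronize to the shifted schedule. Their internal time at sampling may thus differ from that of LD mice, and it cannot be told apart from the ADV effect. Only mice without apparent weakness were used.

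Cytosolic chaperones of the HSP70, HSP90 and small heat shock families hold unfolded proteins, pass them on for folding and keep them from aggregating. Their genes are activated by heat shock factor 1 (HSF1), which binds repeats of a short pentamer in their promoters when unfolded protein accumulates, and in the liver several of them follow the daily cycle of body temperature and feeding. In the ER, secreted and membrane proteins are folded by BiP (Hspa5), GRP94 (Hsp90b1), the lectin chaperones and the disulfide isomerases. When this machinery is overloaded, the sensors IRE1 (Ern1), PERK (Eif2ak3) and ATF6 start the unfolded protein response, which raises chaperones, ER-associated degradation and, through PERK and ATF4, genes of the integrated stress response. Hepatocytes, which secrete most plasma proteins, and plasma cells, which secrete antibody, are the textbook cells with a heavy ER load.

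Expression was given as FPKM, the fragments of a gene divided by its exon length and by the size of its library. Levels of different genes can thus be compared per length. Libraries held 21092501 to 24285055 fragments on genes in the livers and 15688495 to 18043306 in the kidneys, and 1 fragment on 1 kb of exon gave 0.0380 to 0.0440 FPKM in the livers and 0.0508 to 0.0584 FPKM in the kidneys. Both organs expressed their defining genes, with hepatocyte markers at 59219 to 71828 summed FPKM in the LD livers and 58911 to 65968 in the ADV livers, and proximal tubule markers at 27351 to 40388 in the LD kidneys and 18378 to 46278 in the ADV kidneys. A pair of libraries stood apart from the rest. In the liver of A94, 49.7% of the genes tested had their highest value of the 8 livers, and in the kidney of A115, 55.4% of the genes had their lowest value of the 8 kidneys and mitochondrial transcripts took 33.8% of all fragments, against 9.43% to 18.0% in the other kidneys. Part of the results is therefore also given without these mice. The study used 2 sequencing providers without stating which library came from which. An effect of provider therefore cannot be told apart from one of condition or of organ. Fewer cells of a type and less RNA per cell cannot be told apart in whole tissue.

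Promoter elements of the members are shown first, because they describe the HSF1-type and the ER genes without using any expression value. RefSeq promoters (GRCm38.p6, 250 bases before to 50 bases after each start site) were at hand for 38 of the 46 members and for 27025 genes in all. A heat shock element, searched as GAANNTTCNNGAA on both strands, was found in 3 of 12 HSF1-type members (25.0%), Hspd1, Hspe1 and (after the start site) Hsph1, in 0 of 26 ER members and in 0.662% of all genes. The matches of Hspd1 and Hspe1 are the same bases on opposite strands. Only exact matches were counted here and below, so that a promoter without a match may still hold an imperfect element. The ER stress element, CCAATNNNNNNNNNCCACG on both strands, was found in 9 of 26 ER members (34.6%), in 0 of 12 HSF1-type members and in 0.137% of all genes. These 9 were Calr, Canx, Creld2, Derl3, Dnajc3, Hsp90b1, Hspa5, Pdia6 and Syvn1. A C/EBP-ATF element, TGATGCAA, lay in the promoters of Chac1 and Herpud1, 2 of 26 ER members against 1.03% of all genes, and the XBP1 and ATF6 element TGACGTGG in none of the members and in 0.714% of all genes. No promoter was at hand for Hspa8, Hsp90aa1, Hsp90ab1, Cryab, Hsf1, Hyou1, Manf and Atf6.

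The stretches that follow run 5′ to 3′ on the strand of the named gene, with the elements in capitals and 10 flanking bases on each side. They were taken at chr1:55088049-55088086 (plus strand) for Hspe1, chr2:34772015-34772053 (plus) for Hspa5, chr10:86705523-86705666 (minus) for Hsp90b1, chr19:6046522-6046560 (plus) for Syvn1, chr10:75893232-75893270 (plus) for Derl3, chr15:88819510-88819548 (plus) for Creld2 and chr8:94386307-94386334 (plus) for Herpud1. The Hspe1 stretch is shown because the same bases, read on the other strand, form the element of Hspd1, the neighbour that is transcribed away from it, and its overlapping matches join into 4 alternating blocks. Hsp90b1 carries a pair of ER stress elements, and Hspa5, Syvn1, Derl3 and Creld2 carry 1 each in the windows searched. Herpud1 is shown for its C/EBP-ATF element. The elements of Derl3, Creld2 and Herpud1 and the second one of Hsp90b1 lie on the other strand, so that their reverse complement is printed.
Hspe1 (heat shock element): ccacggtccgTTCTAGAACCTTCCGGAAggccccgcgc
Hspa5 (ER stress element): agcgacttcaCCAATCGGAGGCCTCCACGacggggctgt
Hsp90b1 (ER stress elements): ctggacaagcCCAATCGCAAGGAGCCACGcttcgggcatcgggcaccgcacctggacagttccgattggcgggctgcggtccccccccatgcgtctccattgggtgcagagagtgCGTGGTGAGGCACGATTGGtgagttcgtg
Syvn1 (ER stress element): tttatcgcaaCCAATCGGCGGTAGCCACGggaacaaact
Derl3 (ER stress element): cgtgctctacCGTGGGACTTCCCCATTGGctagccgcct
Creld2 (ER stress element): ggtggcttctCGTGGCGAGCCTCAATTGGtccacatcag
Herpud1 (C/EBP-ATF element): ccacggcgggTTGCATCAgcccgcaccc

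The levels of the members spanned more than 3 orders of magnitude, from a mean of 0.193 FPKM for Hspa1a in the liver to 1316 FPKM for Hspa8, the constitutive HSP70, in the kidney. Hspa8, Hsp90ab1 (the constitutive cytosolic HSP90) and Hspd1 (the mitochondrial chaperonin HSP60) were the 3 most abundant HSF1-type members in both organs. Among ER members the leading 3 were P4hb (protein disulfide isomerase), Hspa5 and Hsp90b1 in the liver and Calr (calreticulin), Hspa5 and Hsp90b1 in the kidney. Between the lowest and the highest of 8 mice, the members differed by 1.28-fold (Canx) to 52.6-fold (Asns) in the liver and by 1.30-fold (Sel1l) to 26.0-fold (Derl3) in the kidney. A range above 2-fold was seen for 6 HSF1-type and 15 ER members in the liver and for 11 and 17 in the kidney. The share of all genes with such a range was not counted, so these counts do not set the members apart from other genes. The kidney ranges include A115.

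Some members share sequence with other genes. Of the 100-base windows along the longest annotated transcript, 49.9% of Hspa1b occurred also in Hspa1a, its neighbouring copy, and 48.6% of Hspa1a occurred in another gene, mostly Hspa1b. Other annotated genes, among them pseudogene entries, shared 47.5% of the windows of Hsp90aa1, 42.7% of Hspb1, 31.6% of Hspa8, 26.9% of Hspd1 and 14.8% of Dnaja1. For the other 39 members the share was at most 1.35%. Since the authors removed reads of low mapping quality before counting, the levels of these 7 genes are uncertain.

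The first question was whether the chaperone genes differed between ADV-conditioned and LD-conditioned livers. Mean levels of most members were lower in the ADV livers, and no member passed the test. With the test over all 12835 genes, 0 of 46 members had an adjusted p under 0.05 (background 0.00779%), by limma on the log2(FPKM + 0.1) scale and also by limma-voom on recovered fragments. At an unadjusted p under 0.05, 7 of 17 HSF1-type and 5 of 29 ER members were lower (background 3.13%), and 0 of 46 were higher (background 8.65%). In a fit of both organs with the mouse as a replicate block, 3 HSF1-type and 3 ER members were lower at that limit (background 1.24%). The log2 fold change was below 0 for 15 of 17 HSF1-type and 24 of 29 ER members, against 34.3% of all genes. Its median was −0.32 over the HSF1-type members and −0.12 over the ER members, against 0.096 over all genes tested. The balance over all genes depended on the scaling: at an unadjusted p under 0.05, 1110 genes were higher and 402 lower as deposited, and 795 (6.19%) and 936 (7.29%) after median ratio scaling. With that scaling 9 HSF1-type and 8 ER members were lower at that limit and 0 members higher, and the log2 fold change was below 0 for 16 of 17 and 28 of 29, against 50.3% of all genes.

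HSP70, HSP110 and their partners were lower in mean in all 9 members, with a median log2 fold change of −0.42. Of these, 6 had an unadjusted p under 0.05, Dnajb1, Hspa1b, Hspa8, Dnajb4, Dnaja1 and Hsph1 (background 3.13%). With the mouse as a replicate block in a fit of both organs, only Hspa1b and Hsph1 passed that limit (background 1.24%). Dnajb1, the J-domain protein that hands clients to HSP70 and a classical HSF1 target, measured 10.3, 14.5, 11.8 and 14.0 FPKM in the LD livers and 9.32, 7.93, 8.38 and 8.48 FPKM in the ADV livers (mice in the order L63, L65, L86, L104 and A75, A91, A94, A115, here and in all later lists). All 4 ADV livers lay below all 4 LD livers. Dnajb1 averaged 12.6 ± 1.94 FPKM in LD and 8.53 ± 0.581 FPKM in ADV (SD, n = 4 mice each, log2 fold change −0.55 ± 0.126 SE, limma-adjusted p = 0.290, exact permutation p = 0.0286).

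Hspa8 reached 776, 911, 1046 and 1188 FPKM in the LD livers and 726, 736, 657 and 786 FPKM in the ADV livers. L63 and the highest ADV liver, A115, overlapped, and the other LD livers lay above all ADV livers. Hspa8 averaged 980.0 ± 177 FPKM in LD and 726 ± 52.9 FPKM in ADV (SD, n = 4 mice each, log2 fold change −0.42 ± 0.149 SE, limma-adjusted p = 0.366, exact permutation p = 0.0571). Hspa1b, a stress-induced HSP70, was at 3.17, 6.77, 3.26 and 9.90 FPKM in the LD livers and 2.04, 1.99, 3.28 and 2.69 FPKM in the ADV livers. L65 and L104 stood above all others, while L63 and L86 were near the ADV livers. Hspa1b averaged 5.77 ± 3.22 FPKM in LD and 2.499 ± 0.612 FPKM in ADV (SD, n = 4 mice each, log2 fold change −1.04 ± 0.357 SE, limma-adjusted p = 0.362, exact permutation p = 0.0857). Its copy Hspa1a was barely expressed, with 0.110, 0.363, 0.136 and 0.445 FPKM in the LD livers and 0.0916, 0.0773, 0.244 and 0.0771 FPKM in the ADV livers. The order of the mice was similar, with L65 and L104 highest and A94 next, and the groups overlapped (log2 fold change −0.65 ± 0.388 SE, limma-adjusted p = 0.499, exact permutation p = 0.171). With the fragments of both copies summed, the level was 6.05 ± 3.39 FPKM in LD and 2.63 ± 0.682 FPKM in ADV (SD, n = 4; log2 fold change −1.04, exact permutation test p = 0.0857). The other partners were Hsph1 (HSP110, the nucleotide exchange factor of HSP70) with a log2 fold change of −0.49, Bag3 with −0.36, Dnaja1 with −0.31, Dnajb4 with −0.25 and Hspa4l with −0.062. Of these, all 4 ADV livers lay below all LD livers only for Dnaja1.

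The mitochondrial chaperonin pair, Hspd1 and Hspe1, which shares the promoter printed above, had log2 fold changes of −0.39 and −0.15. Hspd1 measured 180.4, 192, 202 and 224 FPKM in the LD livers and 131, 177, 155 and 148 FPKM in the ADV livers. Each ADV liver was below each LD liver, although A91 at 177 came close to L63 at 180. Hspd1 averaged 199.7 ± 18.6 FPKM in LD and 153 ± 19.1 FPKM in ADV (SD, n = 4 mice each, log2 fold change −0.39 ± 0.117 SE, limma-adjusted p = 0.322, exact permutation p = 0.0286). Hsp90ab1 was at 231, 308, 425 and 415 FPKM in the LD livers and 246, 243, 265 and 329.9 FPKM in the ADV livers. The LD livers themselves split into L63 and L65 at the level of the ADV livers and L86 and L104 above them (log2 fold change −0.32 ± 0.201 SE, limma-adjusted p = 0.518, exact permutation p = 0.257). Hsp90aa1, the inducible HSP90, had a log2 fold change of −0.21.

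Small heat shock proteins, which bind unfolded clients without ATP, had no common direction. The log2 fold change was −0.47 for Hspb1, 0.049 for Hspb8 and 0.43 for Cryab, with A94 at 5.44 FPKM of Cryab against at most 3.23 FPKM in the other livers. The transcription factor Hsf1 itself measured 4.23, 4.28, 4.72 and 5.01 FPKM in the LD livers and 3.599, 3.55, 5.16 and 4.99 FPKM in the ADV livers. A75 and A91 were lowest and A94 highest, so that the groups overlapped (log2 fold change −0.092 ± 0.154 SE, limma-adjusted p = 0.807, exact permutation p = 0.571).

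**Figure D1:**
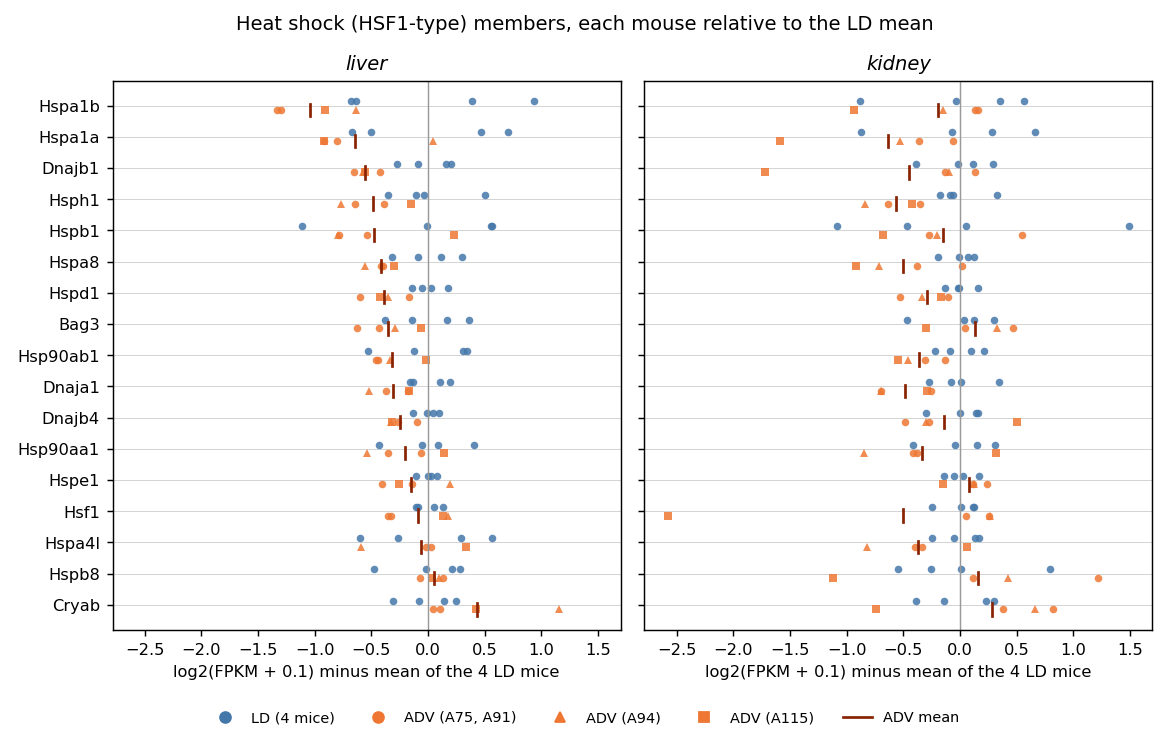
Each point is 1 mouse, and the horizontal axis is log2(FPKM + 0.1) minus the mean of the 4 LD mice of that organ for the 17 HSF1-type members (rows, ordered by the log2 fold change in the liver). In the liver the ADV mean (bar) lies left of 0 for 15 of 17 members, and in the kidney for 13 of 17, with A115 (squares) far left for Hsf1, Dnajb1 and Hspa1a.

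The LD livers varied among themselves. L104 held the highest value of the 8 livers for 12 of 17 HSF1-type members, against 8.85% of all genes, and L63 the lowest of the 8 for 4, against 18.8% of all genes. Averaged over the 17 members on the log2 scale relative to the LD mean, L63 was at −0.38, L65 at 0.048, L86 at −0.018 and L104 at 0.35, and the ADV livers were at −0.38, −0.43, −0.27 and −0.16. Thus 3 LD livers lay above all 4 ADV livers, and L63 lay among them. Without L104, 3 HSF1-type members in place of 7 were lower at an unadjusted p under 0.05 (background 1.90%), and 13 of the 16 then tested had a log2 fold change below 0 (background 32.2%), with a median of −0.23. Without A94, the count was 7 (background 5.66%) and the median −0.31.

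Of the ER members of ER-associated degradation, Herpud1, Sel1l, Syvn1, Edem1 and Derl3 all had log2 fold changes below 0 in the liver (34.3% of all genes). Their median was −0.39, which was that of Derl3. The median was −0.91 without A94 and −0.28 without A115, and in the latter case Derl3 was above 0, at 0.34. Of 23 other ER degradation and sensor genes, 11 were below 0 in the liver (34.3% of all genes), with a median of 0.015 against 0.096 over all genes. Herpud1, a membrane scaffold of the degradation complex that PERK and ATF6 induce, measured 306, 336, 287 and 485 FPKM in the LD livers and 189, 234, 118 and 141 FPKM in the ADV livers. It was the member with the smallest p in the liver, and all ADV livers lay below all LD livers. Herpud1 averaged 353 ± 89.7 FPKM in LD and 171 ± 51.5 FPKM in ADV (SD, n = 4 mice each, log2 fold change −1.07 ± 0.234 SE, limma-adjusted p = 0.269, exact permutation p = 0.0286). Here A94 was the lowest liver, while for 12 of the other ER members it was the highest, against 49.7% of all genes.

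Syvn1, the ubiquitin ligase HRD1 of the same complex, was at 26.7, 33.2, 20.4 and 49.1 FPKM in the LD livers and 11.8, 17.2, 26.1 and 14.9 FPKM in the ADV livers. L104 was highest and A94 lay within the LD range. Syvn1 averaged 32.3 ± 12.3 FPKM in LD and 17.5 ± 6.18 FPKM in ADV (SD, n = 4 mice each, log2 fold change −0.87 ± 0.296 SE, limma-adjusted p = 0.362, exact permutation p = 0.0571). Dnajb9 (ERdj4), which keeps IRE1 inactive through BiP, measured 86.7, 83.8, 45.7 and 78.3 FPKM in the LD livers and 42.1, 44.8, 62.9 and 34.0 FPKM in the ADV livers. L86 fell among the ADV livers and A94 was the highest of these. Dnajb9 averaged 73.6 ± 19.0 FPKM in LD and 45.9 ± 12.2 FPKM in ADV (SD, n = 4 mice each, log2 fold change −0.67 ± 0.238 SE, limma-adjusted p = 0.366, exact permutation p = 0.0571). Eif2ak3, the sensor PERK, was at 6.02, 5.18, 4.38 and 5.85 FPKM in the LD livers and 3.98, 2.94, 4.46 and 3.79 FPKM in the ADV livers. Only A94 and L86 overlapped, at 4.46 and 4.38 FPKM (log2 fold change −0.49 ± 0.157 SE, limma-adjusted p = 0.342, exact permutation p = 0.0571). Ddit3 (CHOP), which PERK signalling induces through ATF4, was the fifth ER member with an unadjusted p under 0.05, with a log2 fold change of −0.43.

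The abundant folding enzymes had smaller log2 fold changes with all livers used, a contrast that was not tested. Hspa5 measured 510.0, 642, 398 and 796 FPKM in the LD livers and 359, 484, 702 and 371 FPKM in the ADV livers. The groups overlapped widely, with L104 and A94 as the highest livers of their groups (log2 fold change −0.30 ± 0.263 SE, limma-adjusted p = 0.616, exact permutation p = 0.343). P4hb was at 531, 599, 498 and 626 FPKM in the LD livers and 497, 559.8, 599 and 449 FPKM in the ADV livers, again with L104 and A94 as the highest of their groups. P4hb averaged 563 ± 59.4 FPKM in LD and 526 ± 66.5 FPKM in ADV (SD, n = 4 mice each, log2 fold change −0.10 ± 0.130 SE, limma-adjusted p = 0.738, exact permutation p = 0.429). Over the 11 ER chaperones and co-chaperones the log2 fold changes ran from −0.74 (Creld2) to 0.02 (Calr), and over the 4 disulfide isomerases from −0.17 (Pdia4) to 0.015 (Pdia6). Without A94 all 11 and all 4 were below 0 (45.9% of all genes), with medians of −0.43 and −0.21 in place of −0.13 and −0.10. Of the 11, 5 then had an unadjusted p under 0.05 by limma, Hspa5 among them (background 5.66%). The transcription factors Xbp1, Atf4 and Atf6 had log2 fold changes of 0.078, 0.068 and −0.031. Without A94 all 6 sensors and transcription factors, Xbp1 and Atf4 included, were below 0, from −0.57 to −0.069. For the 9 ER members with an ER stress element in the promoter the log2 fold changes ran from −0.87 to 0.020 with a median of −0.11, and for the 17 with a promoter but without the element the median was −0.12.

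**Figure D2:**
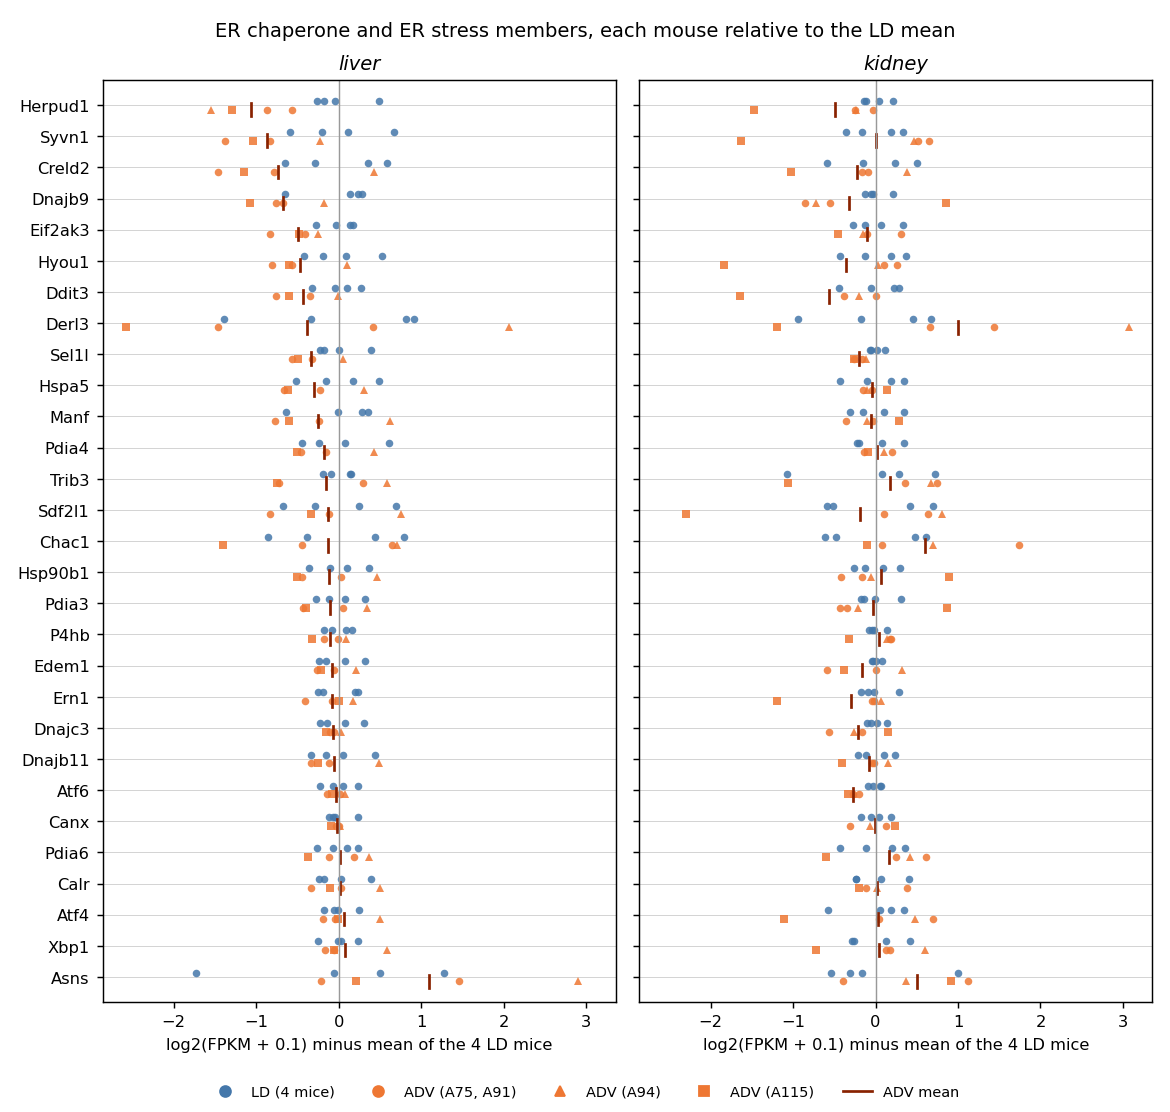
Each point is 1 mouse, and the horizontal axis is log2(FPKM + 0.1) minus the mean of the 4 LD mice for the 29 ER members (rows, ordered by the log2 fold change in the liver). In the liver A94 (triangles) lies to the right of the other ADV mice for most rows and on the left for Herpud1, and in the kidney A115 (squares) lies far from the other mice in both directions.

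Of the 29 ER members, 13 had their highest liver value in L104 and 12 in A94, against 8.85% and 49.7% of all genes. A94 also carried markers of immune cells. Plasma and B cell markers summed to 713 FPKM in its liver against 5.38 to 18.9 FPKM in the other 7, and to 566 FPKM in its kidney against 14.2 to 63.3 FPKM, and all 11 genes of the list had a higher mean in ADV in both organs. T cell markers (6 genes) summed to 20.5 FPKM against 1.31 to 2.07 FPKM and macrophage markers (8 genes) to 613 FPKM against 134 to 253 FPKM in the livers. Beside these, Derl3, which plasma cells express strongly, was chosen after its values were seen: it measured 1.83, 4.49, 0.830 and 4.21 FPKM in the LD livers and 0.788, 3.16, 10.1 and 0.308 FPKM in the ADV livers. Its highest kidney was A94 too, with 7.14 FPKM against 0.275 to 2.24 FPKM. Xbp1, the factor that drives the secretory programme of plasma cells, reached 169 FPKM in the liver of A94 against 94.4 to 132 FPKM. The part of these cells in the ER members was not tested. Without A94, 10 of 29 ER members were lower in the ADV livers at an unadjusted p under 0.05 in place of 5 (background 5.66%), 28 of 29 had a log2 fold change below 0 (background 45.9%) and the median was −0.37 (all genes 0.025), and 0 had an adjusted p under 0.05. Averaged over the 29 members relative to the LD mean, A94 was at 0.37 on the log2 scale, against −0.40, −0.24 and −0.55 in A75, A91 and A115, and L104 at 0.32 against −0.15, 0.081 and −0.25 in L63, L65 and L86. Without L104, 15 of 29 ER members were below 0 (background 32.2%) with a median of −0.0014. The count at an unadjusted p under 0.05 was 3 without L63 (background 3.07%), without L65 (background 2.16%) or without A115 (background 2.96%).

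**Figure D3:**
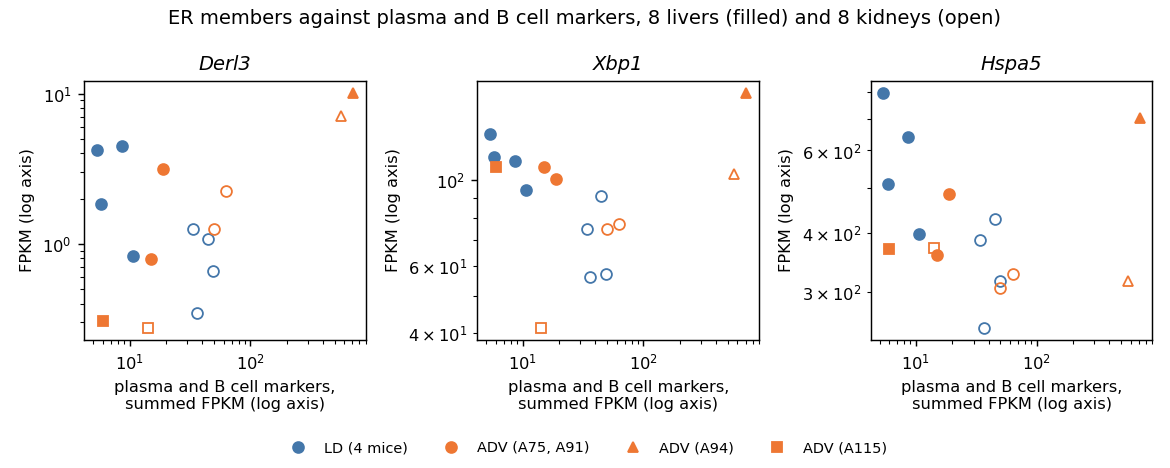
FPKM of Derl3, Xbp1 and Hspa5 (vertical, log axis) is plotted against the summed FPKM of 11 plasma and B cell markers (horizontal, log axis) for the 8 livers (filled) and the 8 kidneys (open). Both libraries of A94 (triangles) sit far to the right, at 713 and 566 summed FPKM, and are the highest of their organ for Derl3 and Xbp1 but not for Hspa5.

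Smooth muscle markers (6 genes, all with a higher mean in ADV in both organs) summed to 4.82 to 6.25 FPKM in the LD livers and 5.80 to 30.2 FPKM in the ADV livers, with A75 at 30.2, A94 at 29.2 and A115 at 10.5 FPKM above all LD livers. In the kidneys they were at 30.3 to 48.2 FPKM in LD and at 134, 52.2, 73.8 and 34.5 FPKM in ADV. Adipocyte markers (4 genes) were at 3.73 to 14.0 FPKM in the LD livers and 3.41 to 18.1 FPKM in the ADV livers. Of these, Cidec, a lipid droplet protein that fatty livers also make, was at 3.22 to 18.1 FPKM over the 8 livers. The others stood out in the liver of A75, with Adipoq at 2.10 FPKM, Plin1 at 0.277 FPKM and Lep at 0.0788 FPKM, against at most 0.0155, 0.0103 and 0 FPKM in the LD livers. Without A75, 6 HSF1-type and 4 ER members were lower in the liver at an unadjusted p under 0.05 (background 2.16%). The part of smooth muscle and fat in the chaperone levels was not tested.

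All 4 ADV livers lay below all 4 LD livers for 4 of 46 members, Herpud1, Dnajb1, Hspd1 and Dnaja1 (8.70%, background 1.89%), and above them for none (background 6.94%). The count below was 9 after median ratio scaling (background 4.75%) and 8 after quantile normalization (background 5.22%).

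The same question was asked in the kidney. Of the 17 HSF1-type members, 13 had a lower and 4 (Bag3, Hspe1, Hspb8 and Cryab) a higher mean log2 level in the ADV group, and no member passed the test when all 8 kidneys were used. The adjusted p was under 0.05 for 0 of 46 members, as for 0% of the 14452 genes tested, by limma and by limma-voom, and the smallest adjusted p of a member was 0.9999 by limma. At an unadjusted p under 0.05, 2 of 17 HSF1-type members, Hsph1 and Dnaja1, and 0 of 29 ER members were lower (background 1.35%), and 0 members were higher (background 1.75%). With the mouse as a replicate block, 4 HSF1-type members and 1 ER member were lower at that limit (background 2.57%). The log2 fold change was below 0 for 13 of 17 HSF1-type and 18 of 29 ER members (all genes 53.6%), with medians of −0.33 and −0.040 against −0.024 over all genes. The ER count depended on single kidneys: it was 11 of 29 without L86 (all genes 49.8%) and 24 of 29 without L63 (all genes 55.7%).

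Hsph1 measured 72.5, 77.0, 78.6 and 103 FPKM in the LD kidneys and 52.9, 64.4, 45.9 and 61.0 FPKM in the ADV kidneys. All ADV kidneys lay below all LD kidneys. Hsph1 averaged 82.8 ± 13.8 FPKM in LD and 56.1 ± 8.30 FPKM in ADV (SD, n = 4 mice each, log2 fold change −0.56 ± 0.173 SE, limma p = 0.0114 before adjustment, exact permutation p = 0.0286). Dnaja1, another J-domain partner of HSP70, was at 97.4, 118, 112 and 149.8 FPKM in the LD kidneys and 72.6, 98.7, 72.8 and 96.5 FPKM in the ADV kidneys. Only A91 at 98.7 reached above the lowest LD kidney, L63 at 97.4. Dnaja1 averaged 119 ± 22.2 FPKM in LD and 85.2 ± 14.4 FPKM in ADV (SD, n = 4 mice each, log2 fold change −0.48 ± 0.188 SE, limma p = 0.0325 before adjustment, exact permutation p = 0.0571). Hspa8 reached 1332, 1509, 1600 and 1657 FPKM in the LD kidneys and 1535, 1169, 927 and 802 FPKM in the ADV kidneys. A75 was at the level of the LD kidneys, and the other 3 ADV kidneys were below them. Hspa8 averaged 1524 ± 142 FPKM in LD and 1108 ± 323 FPKM in ADV (SD, n = 4 mice each, log2 fold change −0.50 ± 0.238 SE, limma p = 0.0686 before adjustment, exact permutation p = 0.0857).

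Hsp90ab1 was at 483, 531, 651 and 603 FPKM in the LD kidneys and 514, 456, 411 and 386 FPKM in the ADV kidneys, where A75 alone overlapped with LD (log2 fold change −0.36 ± 0.170 SE, limma p = 0.0669 before adjustment, exact permutation p = 0.0571). The inducible pair was higher in the kidney than in the liver, with 7.37, 17.5, 13.3 and 20.2 FPKM in the LD kidneys and 15.2, 15.0, 12.3 and 7.08 FPKM in the ADV kidneys for Hspa1b and 3.77, 8.48, 6.62 and 11.1 FPKM in the LD kidneys and 5.40, 6.70, 4.79 and 2.26 FPKM in the ADV kidneys for Hspa1a. L63 and A115 were the lowest kidneys for both copies, and the groups overlapped (Hspa1b, log2 fold change −0.20 ± 0.369 SE, limma p = 0.606 before adjustment, exact permutation p = 0.571 and Hspa1a, log2 fold change −0.63 ± 0.421 SE, limma p = 0.169 before adjustment, exact permutation p = 0.286). Summed over both copies, the level was 22.1 ± 8.66 FPKM in LD and 17.2 ± 5.60 FPKM in ADV (SD, n = 4; exact permutation test p = 0.486). Hsf1 measured 9.44, 7.88, 10.1 and 10.2 FPKM in the LD kidneys and 11.2, 9.76, 11.3 and 1.48 FPKM in the ADV kidneys. A115 was at a fraction of all others, while A75, A91 and A94 lay within or above the LD range (log2 fold change −0.50 ± 0.614 SE, limma p = 0.438 before adjustment, exact permutation p = 0.943).

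**Figure D4:**
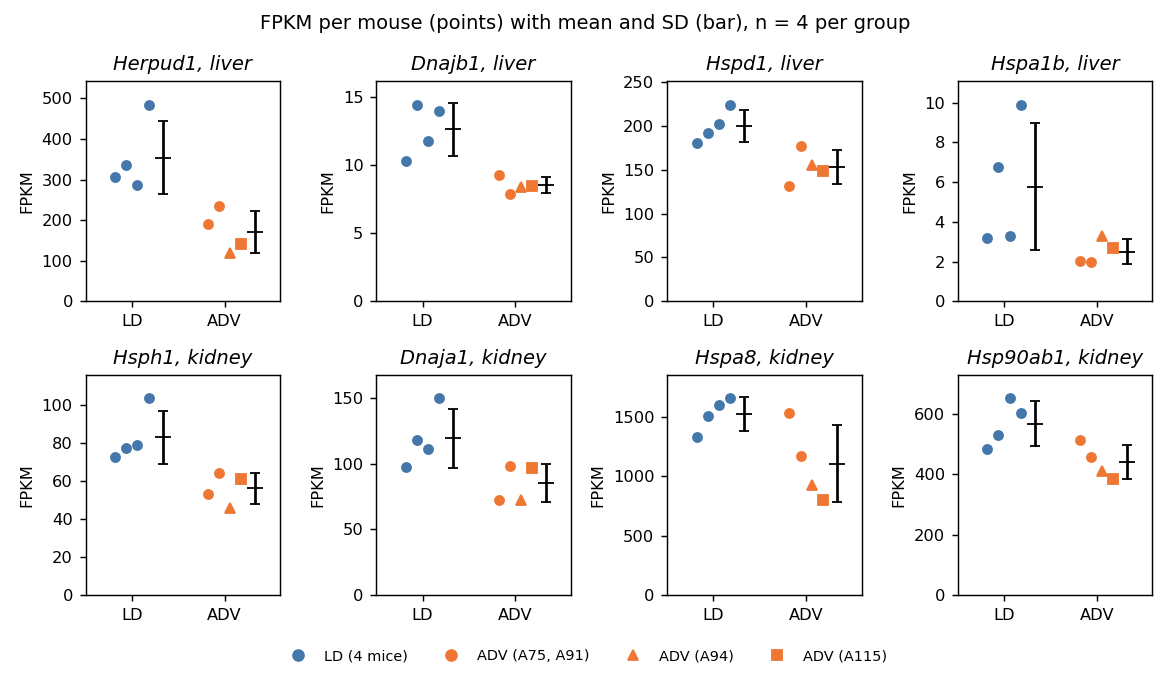
FPKM of 8 members is plotted per mouse (points, LD left and ADV right) with the mean and SD of each group of 4 (black bar), with 4 members in the liver (upper row) and 4 in the kidney (lower row). Herpud1, Dnajb1 and Hspd1 in the liver and Hsph1 in the kidney show no overlap between the groups, and Hspa1b in the liver overlaps through L63 and L86.

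Of the ER members in the kidney, the sensor Atf6 had the smallest p. Atf6 measured 11.2, 11.2, 10.5 and 9.99 FPKM in the LD kidneys and 9.30, 8.80, 8.90 and 8.44 FPKM in the ADV kidneys. The groups did not overlap and the difference was small. Atf6 averaged 10.7 ± 0.581 FPKM in LD and 8.86 ± 0.352 FPKM in ADV (SD, n = 4 mice each, log2 fold change −0.27 ± 0.126 SE, limma p = 0.0651 before adjustment, exact permutation p = 0.0286). Sel1l, the adaptor of HRD1, was at 21.6, 21.4, 24.3 and 22.8 FPKM in the LD kidneys and 18.7, 20.1, 20.8 and 18.8 FPKM in the ADV kidneys, again without overlap (log2 fold change −0.20 ± 0.121 SE, limma p = 0.134 before adjustment, exact permutation p = 0.0286). Herpud1 measured 198, 196, 249 and 220.4 FPKM in the LD kidneys and 181, 211, 182 and 77.1 FPKM in the ADV kidneys. A115 was far below all other kidneys, and the remaining ADV kidneys lay within or just below the LD range (log2 fold change −0.50 ± 0.314 SE, limma p = 0.151 before adjustment, exact permutation p = 0.0857).

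Ddit3 was at 10.2, 13.4, 16.97 and 16.4 FPKM in the LD kidneys and 14.0, 10.7, 12.1 and 4.39 FPKM in the ADV kidneys, with A115 lowest by far and the others overlapping (log2 fold change −0.56 ± 0.368 SE, limma p = 0.167 before adjustment, exact permutation p = 0.229). Hspa5 and Calr, the most abundant ER members, did not separate the groups. Hspa5 measured 251, 316, 429 and 386 FPKM in the LD kidneys and 328, 306, 316 and 372 FPKM in the ADV kidneys, all ADV values within the LD range (log2 fold change −0.04 ± 0.197 SE, limma p = 0.845 before adjustment, exact permutation p = 0.8). Calr was at 293, 292, 458 and 359 FPKM in the LD kidneys and 450.2, 317, 349.7 and 299.8 FPKM in the ADV kidneys, where L86 and A75 were highest (log2 fold change 0.023 ± 0.211 SE, limma p = 0.917 before adjustment, exact permutation p = 0.886). The 3 integrated stress response targets Trib3, Asns (asparagine synthetase) and Chac1 had log2 fold changes of 0.18, 0.50 and 0.60 in the kidney and of −0.15, 1.09 and −0.12 in the liver. The liver values depended on single mice. Without A115 all 3 were above 0 there, from 0.053 to 1.38, as were 8332 of 12816 genes. Asns was at 4.49 FPKM in the liver of A94 against at most 1.58 FPKM in the others, and without A94 the highest of the 3 was 0.49. All 4 ADV kidneys lay below all LD kidneys for 3 of 46 members, Hsph1, Atf6 and Sel1l (6.52%, background 1.83%), and above them for none (background 0.962%). The count below was 1 after median ratio scaling (background 1.52%) and 1 after quantile normalization (background 1.58%).

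The kidney of A115 held the lowest value of the 8 kidneys for 9 of 17 HSF1-type and 15 of 29 ER members, against 55.4% of all genes, and the highest for 2 and 5, against 19.1% of all genes. Its proximal tubule markers summed to 46278 FPKM against 18378 to 40388 FPKM in the other 7, of which the androgen-dependent Kap made up 45922 FPKM, while the phosphate transporter Slc34a1 was at 154 against 801 to 1553 FPKM. Those of the distal nephron and collecting duct summed to 1242 FPKM against 1888 to 3039 FPKM. Inner medulla markers were at 66.1 FPKM against 97.5 to 157 FPKM. Among its high values, Dnajb9 was at 110.2 FPKM against 33.4 to 70.4 FPKM, Pdia3 at 463 FPKM against 189 to 316 FPKM and Hsp90b1 at 542 FPKM against 218 to 357 FPKM, while Hyou1, the ER exchange factor of BiP, was at 8.68 FPKM against 23.1 to 40.5 FPKM and Sdf2l1 at 2.60 FPKM against 8.72 to 23.1 FPKM. The part of tissue composition and of the mitochondrial share in these values was not tested.

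Without A115, calls appeared in the kidney, 3 members among 2724 of 14475 genes. Hsph1 was lower in ADV (log2 fold change −0.61 ± 0.154 SE, limma-adjusted p = 0.0321) and so was Dnajb9 (log2 fold change −0.71 ± 0.112 SE, limma-adjusted p = 0.0117), against 2.68% of all genes called lower. Cryab, the small heat shock protein αB-crystallin, was higher (log2 fold change 0.62 ± 0.185 SE, limma-adjusted p = 0.0495), against 16.1% of all genes called higher. Dnajb9 measured 58.7, 55.5, 70.4 and 59.5 FPKM in the LD kidneys and 33.4, 41.4, 36.9 and 110.2 FPKM in the ADV kidneys, so that the 3 remaining ADV kidneys lay well below LD and A115 far above it. Most genes shifted upwards when A115 was left out, with a median log2 fold change of 0.20, and 10 of 17 HSF1-type and 12 of 29 ER members were then below 0 (background 32.2%). When the median ratio was also used for scaling, 6 HSF1-type members (Hspa4l, Hsph1, Dnaja1, Dnajb4, Hsp90aa1 and Hsp90ab1) and 5 ER members (Dnajb9, Dnajc3, Pdia3, Sel1l and Atf6) were lower at an adjusted p under 0.05, 11 of 46 members against 7.90% of all genes, and 0 were higher, against 8.06% of all genes. Their log2 fold changes in that fit ran from −0.91 (Dnajb9) to −0.38 (Sel1l), and that of Cryab was 0.43.

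The ADV effect was not shown to differ between the organs. The difference of the log2 fold changes, liver minus kidney, had an adjusted p under 0.05 for 0 of 46 members, as for 0% of the 12319 genes tested, and an unadjusted p under 0.05 for 0 members by limma and by limma-voom (background 3.46%). The smallest unadjusted p among the members was that of Bag3, the HSP70 cochaperone of selective autophagy, with a log2 fold change of −0.36 in the liver and 0.13 in the kidney (difference −0.49, standard error 0.306). Herpud1 had −1.07 and −0.50, a difference of −0.57 with a standard error of 0.417. Without A115 it was −0.17 in the kidney and −0.99 in the liver, and with median ratio scaling as well −0.37 and −1.10. Without A115, the difference was below 0 at an unadjusted p under 0.05 for 4 members, Herpud1, Syvn1, Dnajb1 and Bag3 (background 15.2%), and 0 members had an adjusted p under 0.05 by limma.

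Levels of the members were then compared between the organs over all 8 mice, in a fit that treated the 16 libraries as separate samples. As deposited, FPKM of most genes was lower in the liver, with a median log2 difference of −0.75 over 14968 genes, and hepatocyte markers (7 genes) alone summed to at least 58911 FPKM in each liver. After median ratio scaling the median was −0.033, so that each difference below is read against these medians. ER members were the higher group in the liver: 15 of 29 had a higher level at an adjusted p under 0.05 (background 13.2%), 4 a lower one (background 61.9%), and their median difference was 0.44. After median ratio scaling 25 were higher (background 31.0%) and 2 lower (background 34.6%), with a median of 1.21. Of the HSF1-type members, 11 were lower and 1 higher in the liver as deposited, with a median of −0.56, and 3 were lower and 7 higher after median ratio scaling, with a median that turned to 0.21. In all, 31 of 46 members passed (67.4%, background 75.1%).

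The small heat shock proteins showed the largest differences, in opposite directions. Cryab ran from 1.90 to 5.44 FPKM in the livers and from 70.8 to 209.7 FPKM in the kidneys, with means of 2.92 ± 1.09 FPKM in the liver and 138 ± 47.3 FPKM in the kidney (SD, n = 8 mice), and was lower in the liver of each of the 8 mice (log2 difference −5.50 ± 0.226 SE, limma-adjusted p = 5.92e-12). Hspb8, the partner of Bag3 in autophagy of misfolded protein, ran from 76.7 to 129 FPKM in the livers and from 1.498 to 7.95 FPKM in the kidneys, with means of 109.5 ± 16.1 FPKM in the liver and 4.00 ± 2.09 FPKM in the kidney (SD, n = 8 mice), and was higher in the liver of each of the 8 mice (log2 difference 4.89 ± 0.274 SE, limma-adjusted p = 2.64e-10). Hspb1 (HSP27) was at 28.1 ± 12.5 FPKM in the liver and 26.5 ± 18.2 FPKM in the kidney (SD, n = 8 mice), a difference within the spread (log2 difference 0.17 ± 0.350 SE, limma-adjusted p = 0.662). After median ratio scaling the log2 differences were −4.74 for Cryab, 5.65 for Hspb8 and 0.95 for Hspb1, the last with a limma-adjusted p of 0.0178.

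The inducible HSP70 genes and HSP110 were lower in the liver. Hspa1a ran from 0.0771 to 0.445 FPKM in the livers and from 2.26 to 11.1 FPKM in the kidneys (log2 difference −4.41 ± 0.295 SE, limma-adjusted p = 2.27e-09). Hspa1b was at 4.14 ± 2.77 FPKM in the liver and 13.5 ± 4.57 FPKM in the kidney (SD, n = 8 mice, log2 difference −1.81 ± 0.276 SE, limma-adjusted p = 2.54e-05), and Hsph1 at 30.9 ± 9.16 FPKM in the liver and 69.4 ± 17.8 FPKM in the kidney (SD, n = 8 mice, log2 difference −1.17 ± 0.137 SE, limma-adjusted p = 1.54e-06). After median ratio scaling these log2 differences were −3.79, −1.05 and −0.40, the last with a limma-adjusted p of 0.0620. Dnaja1 was at 105 ± 16.8 FPKM in the liver and 102 ± 25.1 FPKM in the kidney (SD, n = 8 mice, log2 difference 0.065 ± 0.114 SE, limma-adjusted p = 0.613), and its difference was 0.84 after median ratio scaling (limma-adjusted p = 0.000407).

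Of the ER members, Chac1, an enzyme that degrades glutathione, was at 2.02 ± 1.05 FPKM in the liver and 0.606 ± 0.432 FPKM in the kidney (SD, n = 8 mice, log2 difference 1.59 ± 0.380 SE, limma-adjusted p = 0.00148). Ern1, the sensor IRE1, was at 6.29 ± 1.02 FPKM in the liver and 2.55 ± 0.635 FPKM in the kidney (SD, n = 8 mice), without overlap between the organs (log2 difference 1.31 ± 0.179 SE, limma-adjusted p = 8.19e-06), Trib3 at 1.33 ± 0.444 FPKM in the liver and 0.523 ± 0.257 FPKM in the kidney (SD, n = 8 mice, log2 difference 1.28 ± 0.316 SE, limma-adjusted p = 0.00185) and Sdf2l1 at 29.3 ± 12.4 FPKM in the liver and 14.7 ± 7.30 FPKM in the kidney (SD, n = 8 mice, log2 difference 1.13 ± 0.416 SE, limma-adjusted p = 0.0225). The sensor Eif2ak3 went the other way, at 4.57 ± 1.05 FPKM in the liver and 9.62 ± 1.87 FPKM in the kidney (SD, n = 8 mice) and also without overlap (log2 difference −1.07 ± 0.134 SE, limma-adjusted p = 3.39e-06).

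Asns was at 1.23 ± 1.41 FPKM in the liver and 3.55 ± 1.72 FPKM in the kidney (SD, n = 8 mice, log2 difference −1.89 ± 0.489 SE, limma-adjusted p = 0.00269), Ddit3 at 5.80 ± 1.40 FPKM in the liver and 12.3 ± 4.00 FPKM in the kidney (SD, n = 8 mice, log2 difference −1.01 ± 0.216 SE, limma-adjusted p = 0.000579) and Canx (calnexin) at 98.3 ± 7.82 FPKM in the liver and 127 ± 16.02 FPKM in the kidney (SD, n = 8 mice, log2 difference −0.36 ± 0.0951 SE, limma-adjusted p = 0.00283). After median ratio scaling these log2 differences were 2.27 for Chac1, 2.06 for Ern1, 1.96 for Trib3, 1.91 for Sdf2l1, −0.30 for Eif2ak3, −1.19 for Asns, −0.24 for Ddit3 and 0.41 for Canx, so that the direction of Canx depended on the scaling. The limma-adjusted p was then 0.0315 for Eif2ak3, 0.0390 for Asns and 0.165 for Ddit3.

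**Figure D5:**
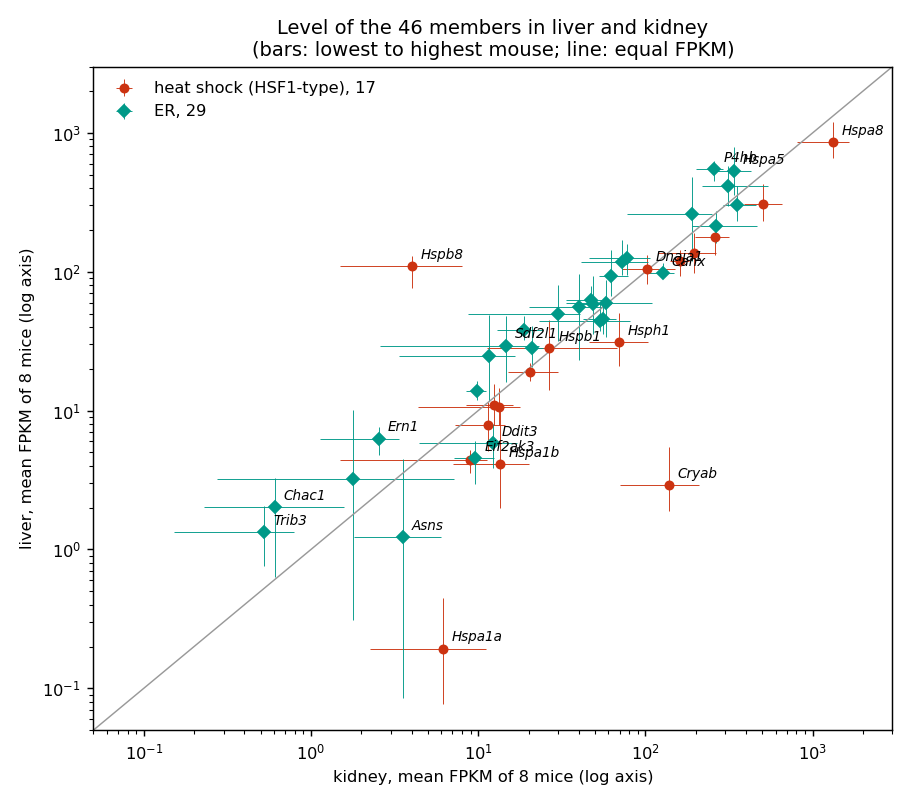
The mean FPKM of each member over 8 mice in the liver (vertical, log axis) is plotted against that in the kidney (horizontal, log axis), with bars from the lowest to the highest mouse and a line at equal FPKM. Hspb8 lies far above the line at 109.5 against 4.00 FPKM, Cryab and Hspa1a lie far below it, and most ER members (diamonds) above 10 FPKM lie above it.

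Further genes of these pathways were counted from lists that leave the members out, with the same fits. In the liver 0 genes of the 4 lists passed the test over all genes. Of 38 other cytosolic and mitochondrial chaperones, 2 were lower at an unadjusted p under 0.05 (background 3.13%), Dnajb6 at 20.7 ± 1.07 FPKM in LD and 16.3 ± 0.846 FPKM in ADV (SD, n = 4; log2 fold change −0.34, limma-adjusted p = 0.296) and Trap1, the mitochondrial HSP90, at 62.8 ± 3.15 FPKM in LD and 52.2 ± 4.52 FPKM in ADV (SD, n = 4; log2 fold change −0.27, limma-adjusted p = 0.362), and 0 were higher (background 8.65%), with a median log2 fold change of −0.036. Of 40 other ER folding and secretion genes 0 passed that limit in either direction (median 0.068). Of 23 other ER degradation and sensor genes 2 were lower and 2 higher (background 3.13% and 8.65%), and the smallest p was that of Creb3l1 at 0.186 ± 0.0707 FPKM in LD and 0.713 ± 0.590 FPKM in ADV (SD, n = 4; log2 fold change 1.28, limma-adjusted p = 0.369), with A94 at 1.57 FPKM. Of 28 other integrated stress response genes 3 were higher and 1 lower (background 8.65% and 3.13%), with a median of 0.19 against 0.096 over all genes. Psph, the last enzyme of serine synthesis, was at 2.20 ± 0.462 FPKM in LD and 3.47 ± 0.111 FPKM in ADV (SD, n = 4; log2 fold change 0.65, limma-adjusted p = 0.296), and Atf5, a factor that ATF4 signalling induces, at 26.9 ± 6.82 FPKM in LD and 42.4 ± 6.52 FPKM in ADV (SD, n = 4; log2 fold change 0.67, limma-adjusted p = 0.296).

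In the kidney, again, 0 genes of the lists passed the test over all genes. At an unadjusted p under 0.05 (background 1.35% lower and 1.75% higher), 1 of 38 other chaperones was lower, Dnaja2 at 79.4 ± 2.15 FPKM in LD and 64.9 ± 3.81 FPKM in ADV (SD, n = 4; log2 fold change −0.29). Ppib (cyclophilin B), 1 of 40 other ER folding genes, was higher, at 145 ± 14.9 FPKM in LD and 185 ± 23.3 FPKM in ADV (SD, n = 4; log2 fold change 0.35). At the same limit 0 of 23 ER degradation and sensor genes and 0 of 28 integrated stress response genes passed in either direction. The medians over these 4 lists were −0.068, 0.014, −0.14 and 0.053.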

How the data were processed

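From 4 LD and 4 ADV mice, 16 stranded paired-end RNA libraries of liver and kidney were sequenced. The authors trimmed adaptors with Trimmomatic, mapped reads to mm10 with STAR (2.5.4b per the labels), removed reads with a mapping quality under 10 with SAMtools and counted over the exons of UCSC known canonical genes in HOMER. The deposited values are FPKM, scaled by each library's own total, although their column names say RPKM, and an exon length per gene in bases. FPKM multiplied by exon length and library total gave steps of 0.5 fragment, within 0.01, in 100% of values.

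Values were tested on the log2(FPKM + 0.1) scale with limma 3.58.1 (R 4.3.3; eBayes with a trend) over genes above a mean of 0.5 CPM of recovered fragments, with Benjamini-Hochberg adjustment over all genes tested. The study itself used a count model, while the unit of the tables called for a test on the log scale. Exact permutation tests were two-sided, with 0.0286 as the smallest p that 4 mice against 4 allow. Mice were separate animals, and p-values measure the spread between them. Promoters came from RefSeq (GRCm38.p6) and transcripts from GENCODE vM21; no protein sequence was used here. Motifs were searched and figures drawn with python 3.11.15 and matplotlib 3.10.9. Fits were tested on simulated data.

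The members, lists and tests were chosen with earlier results of these data known. Values were given per mouse for Hspa1a, Hspa1b, Hsf1 and, in each organ and group of members, those with an adjusted p under 0.05, the 4 with the smallest p and the 2 most abundant, and between organs for the 4 of each group with the largest difference in each direction. Genes of the further lists were named for an adjusted p under 0.05 or as 1 of the 2 smallest p of a list. The symbols Ero1a, Ero1b, Selk, Vimp, Ufd1l, Hsp90b2p and Igj of these lists matched no row. Liver and kidney of a mouse were matched by the mouse number in the labels. Between the organs of a mouse, deviations from the group means correlated across 12319 genes with r of −0.024 to 0.55. The r was above 0.1 in 5 of 8 mice. In 6 of 8 mice it was higher than with any other mouse of the same condition. A75 and A115 were the exceptions, at −0.024 and 0.042 against up to 0.15 and 0.27 with another mouse. Alternatives were other pseudocounts (0.5 and 1), filters, scalings, no trend, limma-voom, leaving out each mouse, 1 fit for both organs and the mouse as a replicate block.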

Additional observations from a re-analysis of the deposited data

Results flagged for a closer look

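Within each group of 4 mice, the gap between an extreme mouse and its neighbour was divided by the range of the group (Dixon's ratio). Of 184 groups examined, 10 exceeded the critical value for 4 samples, where chance flags about 1 in 20 groups. The kidney of A115 accounted for 7 of them. It was the lowest ADV kidney for Hsf1 (ratio 0.845), P4hb (0.878), Syvn1 (0.847) and Ern1 (0.878) and the highest for Dnajb4 (0.840), Dnajb9 (0.896) and Pdia3 (0.888). Mitochondrial transcripts took 33.8% of the fragments of this library, and their part in these ratios was not tested. In the liver A94 was the highest ADV mouse for Hspa1a (0.913) and Xbp1 (0.882), in the library with the highest plasma and B cell markers. In the LD kidneys, L86 was highest for Asns (0.844), at 5.47 FPKM against 1.82 to 2.39 FPKM in the others.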

How the results depend on the processing

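The number of members with an adjusted p under 0.05 stayed at 0 in the liver and for the difference between the organs under all alternatives tried. In the kidney it was 0 except without A115 (3) and without A115 with median ratio scaling (11), and the range on leaving out 1 mouse was 0 to 3. Between the organs it was 30 to 42 in place of 31 (28 to 35 on leaving out 1 mouse). Counts of members lower at an unadjusted p under 0.05 were less stable, and the share of all genes lower at that limit moved too. In the liver the 7 HSF1-type members became 3 with both organs in 1 fit and 3 with the mouse as a replicate block. They became 9 with median ratio scaling, 9 with quantile normalization and 10 without A115 with median ratio scaling (3 to 10 on leaving out 1 mouse). In the same order of fits, the 5 ER members became 3, 3, 8, 7 and 7 (3 to 10). The share of all genes was 3.13%, and 1.25%, 1.24%, 7.29%, 7.77% and 6.67% in that order (1.90% to 5.66%). With limma-voom and without a trend, 4 ER members were lower (3.08% and 2.73% of all genes). In the kidney the 2 HSF1-type members became 1 with median ratio scaling, 4 with limma-voom, 8 without A115 with median ratio scaling and 4 with the replicate block (1 to 6). The 0 ER members became 1 with median ratio scaling, 2 with quantile normalization, 1 with limma-voom, 9 without A115 with median ratio scaling, 1 with both organs in 1 fit and 1 with the replicate block (0 to 4). Of all genes 1.35% were lower, and 1.26%, 1.46%, 1.54%, 18.7%, 2.62% and 2.57% in these 6 fits (0.456% to 7.58%). Members higher at that limit appeared in the kidney without A115 (1 HSF1-type and 2 ER, 29.5% of all genes) and without A115 with median ratio scaling (1 and 1, 17.4%). With the replicate block, no call at an adjusted p under 0.05 changed. Livers without overlap went from 4 members to 9 (median ratio) and 8 (quantile), and kidneys from 3 to 1 and 1. The causes were not tested.

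Over all alternatives, the log2 fold change turned sign at least once for 19 of 46 members in the liver, 24 in the kidney and 17 between the organs. Of the members given in full, 7 turned. In the kidney, the log2 fold change without A115 was 0.048 for Hspa1b (−0.49 to 0.048 on leaving out 1 mouse) and 0.19 for Hsf1 (−0.76 to 0.19). That of Calr was −0.064 after quantile normalization, −0.10 without A115 with median ratio scaling, −0.055 without L63, −0.057 without L65 and −0.099 without A75 (up to 0.16 without L86), and that of Hspa5 was 0.074 without L86 and 0.024 without L104 (down to −0.18 without L63). Between the organs, Dnaja1 was at −0.072 with mitochondrial genes left out, Hspb1 at −0.030 without A115 (up to 0.33 without L86), and Canx at 0.41 with median ratio scaling and 0.53 without A115 with median ratio scaling. The medians over HSF1-type members stayed below 0, between −0.48 and −0.23 in the liver and between −0.50 and −0.22 in the kidney, while between the organs they ran from −0.69 to 0.30. Those over ER members ran from −0.37 to −0.0014 in the liver and from −0.17 to 0.061 in the kidney. Single libraries limit the precision: 5 fragments lay behind the lowest Hspa1a value in the liver, and 4 behind the lowest Asns value.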
